A study of Rattus norvegicus with 6 samples.

Results

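The genes described here are 10 cartilage matrix and SOX chondrogenic genes, taken as a list of gene symbols: Sox5, Sox6, Sox9, Acan, Comp, Cilp, Cilp2, Matn3, Prg4 and Chad. All 10 were among the 19266 genes of the deposited table, each in a single row. Poly(A) RNA was sequenced as paired ends in 6 libraries of the rat line SCSP-402, which the labels call Bone Marrow Mesenchymal Stem Cells of genotype WT. Every library came from a co-culture with BV2, an immortalised mouse microglia line. In 3 libraries the co-culture had been stimulated with lipopolysaccharide (LPS), the bacterial cell wall component sensed by toll-like receptor 4, and 3 untreated libraries had not. The labels give neither the dose or duration of LPS nor whether the cultures were in contact, and they place all libraries in batch 1. They do not say that replicates were separate cultures. The p-values thus reflect the spread among these 6 libraries alone, and that spread may be technical.

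SOX9 is the transcription factor that commits mesenchymal cells to cartilage. SOX5 and SOX6, which lack an activating domain of their own, bind beside it at cartilage enhancers, as worked out mainly in the mouse. The matrix they help to build consists of collagen II, IX and XI fibrils, aggrecan aggregated on hyaluronan through link protein, and linkers such as COMP, the matrilins and chondroadherin. Marrow stromal cells can be driven to form cartilage, and several of these genes, Comp, Cilp and Prg4 among them, are also used by tendon and by the joint surface.

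Depth was even, at 19.8 M to 20.5 M fragments per LPS library and 19.3 M to 20.2 M per untreated library. All fragment numbers here assume that 1 fragment is 4 units of the deposited counts. Untreated replicate 1 stood apart: on the first principal component of all tested genes, which carried 76.5% of the variance, it lay at -10.97, where untreated replicates 2 and 3 lay at -26.7 and -26.6 and the LPS libraries between 19.5 and 22.5. Stromal markers were abundant, with Itgb1 at 436 FPKM (fragments normalised to transcript length and library depth) with LPS and 523 FPKM untreated, and Thy1 at 280 and 238 FPKM. The 12 stromal markers summed to 1357 to 1386 FPKM in LPS libraries and 1070 to 1110 FPKM in untreated libraries. Vcam1 (0.881 FPKM with LPS and 0.19 FPKM untreated) and Lepr (0.142 and 0.132 FPKM) were below 1 FPKM, both named after their values were seen. The defining microglia and macrophage markers, looked for among rat genes, were at or near 0: Ptprc averaged 0 FPKM with LPS and 0.0122 FPKM untreated, Aif1 0.0375 and 0 FPKM, and Trem2 0 and 0.0181 FPKM. Of 15 such markers in the table, Fcer1g and Cd14 (11 and 8.23 FPKM) were above 1 FPKM. Fcer1g varied within groups, at 27.4, 2.29 and 2.98 FPKM with LPS and 9.62, 1.20 and 7.01 FPKM untreated. The summed level of the list ran from 13.8 to 40.7 FPKM with LPS and from 9.24 to 20.9 FPKM untreated. The 5 endothelial markers summed to 0.259 to 0.384 FPKM with LPS and 0.632 to 0.817 FPKM untreated. The main cartilage collagen was close to absent, as Col2a1 averaged 0.0458 ± 0.0397 FPKM with LPS and 0.243 ± 0.095 FPKM untreated (SD, n = 3).

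With LPS, the co-cultures held less RNA of SOX9, SOX6, aggrecan, COMP and both cartilage intermediate layer proteins. Every member abundant enough to be tested fell, by 2.42-fold for Sox9 up to 7.84-fold for Cilp2. Lubricin (Prg4) went the other way at a very low level, and the groups overlapped for Sox5, Matn3 and Chad. Tested genes were those with at least 1 FPKM in at least 3 of the 6 libraries, 6 of the 10 members, and all 6 were lower with LPS by edgeR's quasi-likelihood test at an adjusted p under 0.05. Over all 11559 tested genes 19.0% were lower and 20.1% higher, so that 51.3% of calls were higher. That share was 63.3% with limma on log2(FPKM + 1) and 62.7% with no normalization factors, and the 6 members were lower under both. Over the tested members the log2 fold change had a median of -1.73, and over all tested genes one of 0.000123. Sox6 and Cilp2 passed the filter through untreated libraries alone and so could only be lower. The count of 6, the median of -1.73 and the 7.84-fold fall of Cilp2 should be read with that. The members were also chosen with earlier results of these data known. All LPS values lay below all untreated values for these 6 genes, a pattern held by 20.6% of tested genes. Fewer cells of a type and less RNA per cell cannot be told apart in such bulk libraries.

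**Figure D1:**
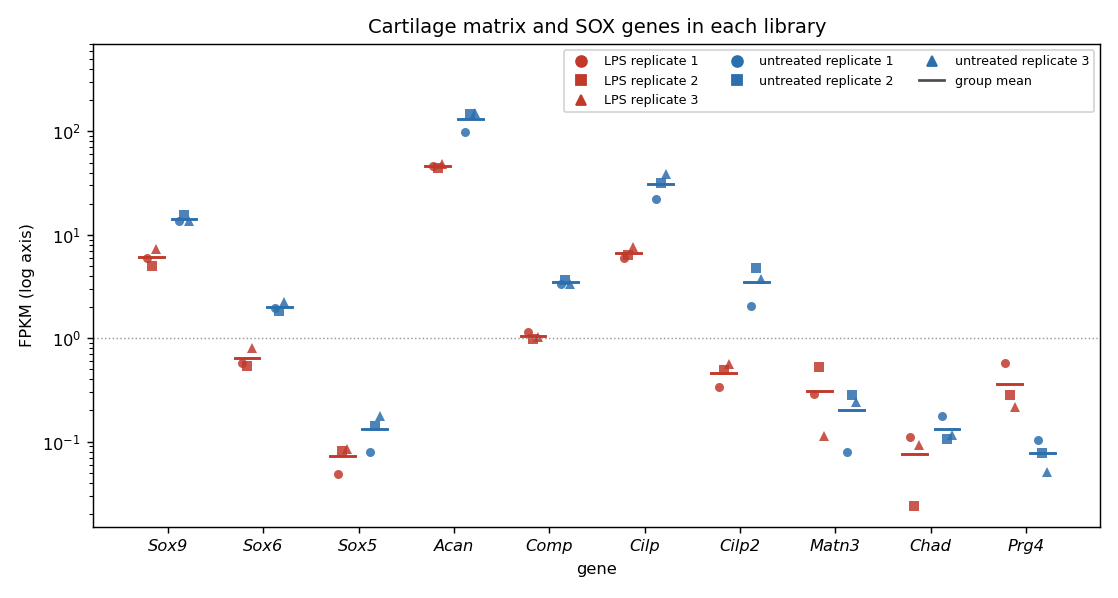
FPKM of the 10 genes in each library on a log axis, LPS libraries (red) left of untreated libraries (blue), with bars at the group means and a dotted line at 1 FPKM. For Sox9, Sox6, Acan, Comp, Cilp and Cilp2 the LPS points lie below the untreated points, Prg4 lies the other way round, and Sox5, Matn3 and Chad overlap.

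Among the transcription factors, Sox9 was the most abundant of the trio. It stood at 5.96, 5.02 and 7.28 FPKM in the LPS libraries and at 13.7, 15.4 and 13.7 FPKM in the untreated libraries. The groups did not overlap, and the lowest untreated value was well clear of the highest LPS value. Its log2 fold change was -1.27 ± 0.12 (SE, adjusted p = 0.00018 by edgeR), or 2.42-fold lower with LPS. Sox9 occupies 5.51 kb on the plus strand of chromosome 10 (97806485 to 97811994 in mRatBN7.2), with 1 annotated transcript.

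Sox6 stood at 0.571, 0.544 and 0.795 FPKM with LPS and at 1.98, 1.84 and 2.22 FPKM untreated, again without overlap. It was 3.26-fold lower (log2 fold change -1.70 ± 0.18 SE, adjusted p = 0.000265 by edgeR), resting on 137 fragments over the LPS libraries and 424 over the untreated libraries. Sox5, its closest relative, was barely transcribed. Its values were 0.0491, 0.0814 and 0.0857 FPKM with LPS and 0.0798, 0.142 and 0.178 FPKM untreated, in all 23 and 41 fragments. These ranges overlapped, through untreated replicate 1. The locus also overlaps a gene annotated on the opposite strand, and strand use in the counting is not given. For Sox5 the exact two-sided permutation test gave p = 0.3, where 0.1 is the smallest p possible with 3 against 3 libraries. The Sox5 locus spans 951 kb on the minus strand of chromosome 4 and Sox6 548 kb on the minus strand of chromosome 1.

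Within each library the ratio of Sox6 to Sox9 FPKM was 0.0958, 0.108 and 0.109 with LPS and 0.145, 0.119 and 0.162 untreated. The groups did not overlap (exact two-sided permutation p = 0.1, the smallest possible). The ratio of Acan to Sox9, a matrix product against its regulator, averaged 7.75 ± 1.11 with LPS and 9.31 ± 1.9 untreated (SD, n = 3; exact permutation p = 0.3). Its groups overlapped, at 7.83, 8.82 and 6.61 with LPS and 7.29, 9.57 and 11.1 untreated. The ratio of Comp to Sox9 was lower with LPS in each library, at 0.195, 0.195 and 0.140, against 0.246, 0.238 and 0.245 untreated.

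Acan encodes aggrecan, the large proteoglycan that draws water into cartilage, and it was by far the most abundant member. It stood at 46.7, 44.3 and 48.1 FPKM in the LPS libraries and at 99.7, 147 and 151 FPKM in the untreated libraries. The LPS values were tight, with a coefficient of variation of 4.23%, while untreated replicate 1 lay 48.1% of the way from the mean of untreated replicates 2 and 3 down to the LPS mean. Its log2 fold change was -1.57 ± 0.15 (SE, adjusted p = 0.00015 by edgeR), and -1.74 without untreated replicate 1. Aggrecan made up 74.8% ± 1.46 of the summed FPKM of the 10 genes with LPS and 70.7% ± 1.07 untreated (SD, n = 3). Acan lies on the plus strand of chromosome 1, 132981582 to 133043627 in the same build.

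Comp, the pentameric thrombospondin family member that links collagen fibrils, stood at 1.16, 0.977 and 1.02 FPKM with LPS and at 3.37, 3.66 and 3.34 FPKM untreated. Both groups were tight, and it was 3.39-fold lower (log2 fold change -1.76 ± 0.11 SE, adjusted p = 5e-05 by edgeR). Here untreated replicate 1 sided with the other untreated libraries, at 5.44% of the way to the LPS mean, as it did for Sox6 (3.43%) and Sox9 (10%).

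Cilp and Cilp2 encode the cartilage intermediate layer proteins, secreted matrix glycoproteins, and had the largest falls of the 6. Cilp stood at 5.95, 6.33 and 7.54 FPKM with LPS and at 22.2, 31.9 and 38.9 FPKM untreated. Its log2 fold change was -2.28 ± 0.19 (SE, adjusted p = 0.000116 by edgeR), and -2.47 without untreated replicate 1. Cilp2 stood at 0.338, 0.494 and 0.563 FPKM with LPS and at 2.05, 4.79 and 3.75 FPKM untreated, with 141 fragments over the LPS libraries and 1044 over the untreated libraries. It was 7.84-fold lower with LPS (log2 fold change -2.97 ± 0.32 SE, adjusted p = 0.000292 by edgeR), and 9.51-fold lower without untreated replicate 1. Untreated replicate 1 lay 46.0% of the way to the LPS mean for Cilp and 58.3% for Cilp2, and had the lowest untreated value of both. Cilp2 overlaps Yjefn3 on the same strand by 23 bases, where reads cannot be assigned with certainty. Yjefn3 itself averaged 0.0612 FPKM with LPS and 0.226 FPKM untreated. Within each library the ratio of Cilp to Cilp2 was 17.6, 12.8 and 13.4 with LPS and 10.8, 6.66 and 10.4 untreated, and that of Cilp to Acan was 0.127, 0.143 and 0.157 with LPS and 0.222, 0.217 and 0.258 untreated. Neither ratio overlapped between the groups (exact two-sided permutation p = 0.1 each, the smallest possible).

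Comp and Cilp2 lie 484 kb apart on chromosome 16, Comp on the minus strand (19047207 to 19055845) and Cilp2 on the plus strand (19539706 to 19547191), in mRatBN7.2. Of 23 genes of the table between them, 16 were tested, and edgeR called 4 higher and 0 lower with LPS, with a median of 0.03 on the log2 scale. At an unadjusted p under 0.05 edgeR had 2 lower, Armc6 and Gatad2a, and DESeq2 called 2 lower. Within 500 kb of Comp 3 of 38 tested neighbours were lower and 13 higher, and near Cilp2 1 of 24 was lower and 4 were higher, against 19.0% and 20.1% of all tested genes. The 3 lower neighbours of Comp include Cilp2, and the 1 lower neighbour of Cilp2 is Comp. Near Acan 4 of 11 were lower and 1 higher, near Cilp 4 of 16 were lower and 3 higher, and near Sox6 2 of 5 were lower. The single tested neighbour of Sox9 was not called.

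The promoters of Acan, Comp, Cilp2 and Prg4 are shown for the motif matches they hold, and were picked after the search: the first 3 are the lower genes with an NF-kB consensus, and Prg4 is the gene that was higher. Cilp and Sox6, also lower, were searched too. RefSeq windows of 300 bases, from 250 before to 50 after a start site in build GRCr8, were matched by symbol for 8 of the 10 members. Sox9, also lower, and Sox5 had no window and were not searched. Those of Acan (chr1:142390701-142391000, plus strand), Comp (chr16:19089499-19089798, minus strand), Cilp2 (chr16:19573857-19574156, plus strand) and Prg4 (chr13:65054176-65054475, minus strand) read as follows, 5′ to 3′. Capitals mark the NF-kB consensus on either strand in the first 3, and in Prg4 an ACAAAG, a core bound by SOX proteins, and a TATAAA on the opposite strand.
Acan: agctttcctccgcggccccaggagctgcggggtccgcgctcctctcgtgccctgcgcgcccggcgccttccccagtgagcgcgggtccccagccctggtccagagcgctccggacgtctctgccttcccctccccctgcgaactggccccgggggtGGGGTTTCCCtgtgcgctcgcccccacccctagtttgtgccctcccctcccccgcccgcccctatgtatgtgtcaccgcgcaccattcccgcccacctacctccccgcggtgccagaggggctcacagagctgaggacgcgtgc
Comp: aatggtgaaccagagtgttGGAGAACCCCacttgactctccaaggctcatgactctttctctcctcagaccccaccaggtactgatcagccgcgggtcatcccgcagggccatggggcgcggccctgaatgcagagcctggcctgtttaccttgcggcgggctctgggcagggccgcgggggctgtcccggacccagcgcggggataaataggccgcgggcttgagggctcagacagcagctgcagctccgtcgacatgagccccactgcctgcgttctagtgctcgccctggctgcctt
Cilp2: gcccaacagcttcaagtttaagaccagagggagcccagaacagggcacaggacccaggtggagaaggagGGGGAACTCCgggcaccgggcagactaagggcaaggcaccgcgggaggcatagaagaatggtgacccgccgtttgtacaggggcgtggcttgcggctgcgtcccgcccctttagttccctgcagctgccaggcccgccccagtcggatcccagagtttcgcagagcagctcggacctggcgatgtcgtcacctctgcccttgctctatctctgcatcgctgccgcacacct
Prg4: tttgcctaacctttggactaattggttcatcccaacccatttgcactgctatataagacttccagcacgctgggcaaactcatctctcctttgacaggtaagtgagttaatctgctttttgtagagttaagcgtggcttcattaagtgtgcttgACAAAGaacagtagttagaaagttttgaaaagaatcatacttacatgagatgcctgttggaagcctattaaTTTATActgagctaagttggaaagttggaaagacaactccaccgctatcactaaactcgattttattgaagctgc

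Counted to the first base of the match on the strand of the gene, the NF-kB consensus began 94 bases before the Acan start, where it matched on both strands, 231 before that of Comp and 181 before that of Cilp2. The other 5 windows did not hold it, those of Sox6 and Cilp included, and 4.18% of 33469 rat promoter windows of this length did. That share was not matched for G and C content, so nothing is drawn from the comparison. The SOX core, searched as ACAAAG or ACAATG on both strands, was found 3 times in the Sox6 window and 1 time in that of Prg4, while 18.8% and 13.2% of all windows held these words. TATAAA, present in 14.2% of all windows, was found for Prg4 and Chad. The windows of Acan (73.0% G and C), Comp (64.7%), Matn3 (64.0%), Cilp2 (63.7%) and Chad (60.0%) were richer in G and C than the median window (51.7%). Those of Cilp (51.0%), Sox6 (42.0%) and Prg4 (39.3%) were poorer. The start sites used for Cilp2, Cilp, Sox6 and Prg4 differ from the first base of the gene in the RefSeq gene table of that build. These matches describe letters only.

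Prg4 encodes lubricin, the mucin-like proteoglycan that coats joint surfaces. It stood at 0.579, 0.281 and 0.216 FPKM in the LPS libraries and at 0.104, 0.0777 and 0.0512 FPKM in the untreated libraries, or 54, 26 and 20 fragments against 10, 7 and 5. The groups did not overlap, with LPS replicate 1 highest. Being under the filter it was not tested with the others. In a fit of all 19266 genes with no filter, where 11.9% were called higher and 10.9% lower, its log2 fold change was 2.14 ± 0.45 (SE, adjusted p = 0.0105 by edgeR), or 4.41-fold higher with LPS. It was 1.61 without LPS replicate 1 (adjusted p = 0.0428), and the call was kept without any one library, a check added after the values were seen. These fits used the deposited count units and were not repeated for Prg4 with counts divided by 4, where counting error weighs more. The gene overlaps Tpr on the opposite strand by 240 bases, and strand use in the counting is not given. Tpr averaged 16.2 ± 0.719 FPKM with LPS and 16.2 ± 0.994 FPKM untreated (SD, n = 3).

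Matn3 and Chad could not be told apart between the groups at this depth. Matn3, a matrilin of growth cartilage, stood at 0.291, 0.529 and 0.114 FPKM with LPS and at 0.0798, 0.280 and 0.244 FPKM untreated (exact two-sided permutation p = 0.4). Its libraries held between 4 and 23 fragments each. Chad, the collagen-binding leucine-rich protein chondroadherin, stood at 0.111, 0.024 and 0.0932 FPKM with LPS and at 0.176, 0.105 and 0.116 FPKM untreated (exact two-sided permutation p = 0.2), on 10 and 17 fragments in all. With no filter their log2 fold changes were 0.57 ± 0.64 (SE, adjusted p = 0.583 by edgeR) and -0.83 ± 0.74 (adjusted p = 0.474), and that of Sox5 was -0.91 ± 0.45 (adjusted p = 0.201). The whole of Chad lies within Acsf2, on the opposite strand, which averaged 3.9 FPKM with LPS and 4.05 FPKM untreated.

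By level per length, the order with LPS was Acan, Cilp, Sox9, Comp, Sox6, Cilp2, Prg4, Matn3, Chad and Sox5. In untreated co-culture it was Acan, Cilp, Sox9, Cilp2, Comp, Sox6, Matn3, Sox5, Chad and Prg4. Cilp and Sox9 overlapped with LPS, at 5.95 to 7.54 and 5.02 to 7.28 FPKM, whereas in untreated libraries Cilp, at 22.2 to 38.9 FPKM, was above Sox9 in each. Cilp2 and Comp overlapped in untreated libraries, while with LPS all Comp values exceeded all Cilp2 values. Among the neighbours in this order, Sox6 and Cilp2, Cilp2 and Prg4, Prg4 and Matn3, and Chad and Sox5 also overlapped with LPS. In untreated libraries Matn3, Sox5 and Chad overlapped each other, and Prg4 lay below Chad in all 3. Together the 10 genes summed to 61.7, 58.5 and 65.8 FPKM with LPS and to 143, 205 and 214 FPKM untreated.

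The profiles of the tested members over the 6 libraries lay at unequal distances. Sox9 and Comp were the closest, with a root mean square difference of 0.134 between their centred log2(FPKM + 1) values, followed by Acan and Cilp2 at 0.146. Sox6 and Cilp were the farthest apart at 0.619. Among 7357 tested genes with a mean of at least 5 FPKM, the 3 nearest to Acan were Il33 (0.0504), Susd5 (0.0626) and Mest (0.0633). The nearest to Sox9 were Trib3 (0.0869), Nupr1 (0.0931) and Chac1 (0.104), and to Comp they were Casp4 (0.0361), Ankh (0.0684) and Pltp (0.0805). Among the genes nearest to Sox6 were Ogn (0.0656) and Aspn (0.0673). Cilp was nearest to Cadm4 (0.104), Igfbp5 (0.109) and Frzb (0.172), and Cilp2 to Tgfb3 (0.106), Myh11 (0.113) and Susd5 (0.135). These distances are descriptions over 6 libraries of 2 groups and mostly reflect how large each gene's difference is on this scale, where adding 1 shrinks the differences of low genes. Under limma on log2(FPKM + 1) the log2 fold change of Comp was -1.12 beside -1.11 for Sox9, and that of Cilp2 was -1.58 beside -1.47 for Acan, where the fits to counts gave -1.76, -1.27, -2.97 and -1.57. The closest pairs therefore depend on the scale.

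**Figure D2:**
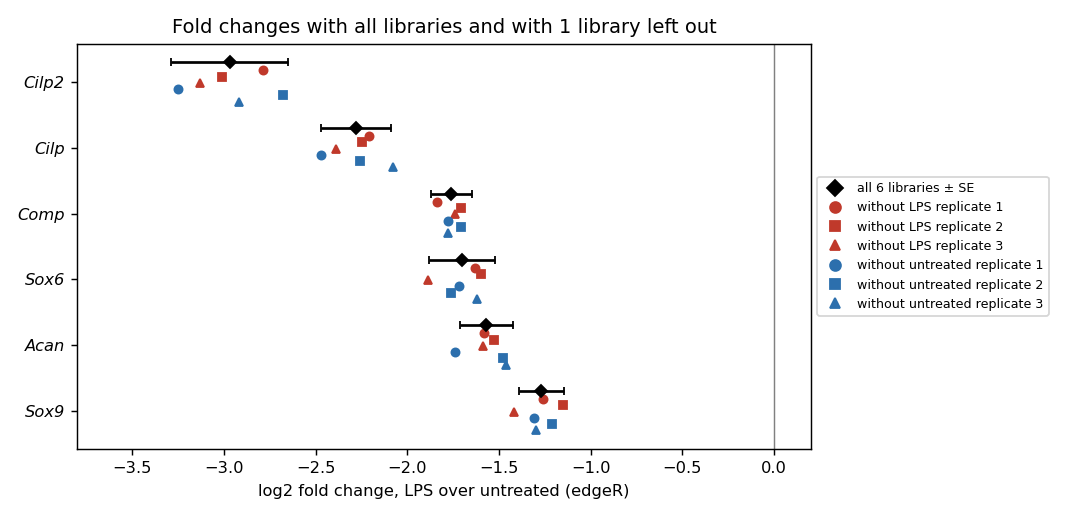
Log2 fold change of the 6 tested members, LPS over untreated, with all libraries (black diamonds with standard errors) and with 1 library left out (coloured points). No point reaches 0, and leaving out untreated replicate 1 gives the most negative value for Acan, Cilp and Cilp2.

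Of 17 other cartilage matrix genes listed, 14 were in the table and 7 were tested. With LPS 5 of the 7 were lower and 1 was higher, where 19.0% and 20.1% of all tested genes were. Col9a3, Hapln1 and Epyc passed the filter through the untreated libraries alone and could only come out lower, and nothing is drawn from the count. Of the other 4, Col11a1, a chain of collagen XI, and Col27a1 were lower, Mgp was higher and Hapln3 did not pass, the collagens and Hapln3 being named after their values were seen. Col11a1 averaged 175 ± 5.95 FPKM with LPS and 367 ± 36.5 FPKM untreated (SD, n = 3). Col9a3, a chain of the collagen IX that decorates collagen II fibrils, stood at 0.0945, 0.224 and 0.202 FPKM with LPS and 2.05, 4.28 and 3.36 FPKM untreated (log2 fold change -4.25 ± 0.37 SE, adjusted p = 0.00012 by edgeR). Hapln1, the link protein that locks aggrecan onto hyaluronan, averaged 0.203 ± 0.0325 FPKM with LPS and 1.68 ± 0.165 FPKM untreated (SD, n = 3), 8.45-fold lower. Epyc, the small leucine-rich proteoglycan epiphycan, was 4.77-fold lower, at 0.681 ± 0.277 FPKM with LPS and 3.16 ± 0.907 FPKM untreated. Mgp, matrix Gla protein, an inhibitor of mineralisation made by chondrocytes and by smooth muscle, rose to 150 ± 13.1 FPKM with LPS, against 34.7 ± 7.63 FPKM untreated, 4.18-fold. Without untreated replicate 1 the folds were 22.5 for Col9a3, 8.67 for Hapln1, 5.52 for Epyc and 4.74 for Mgp.

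Close relatives of the members did not move as one. Of 9 tested, 4 were lower and 3 higher, with a median log2 fold change of -0.12. Among all tested genes 19.0% were lower and 20.1% higher. Versican (Vcan), the lectican of loose connective tissue, was higher where aggrecan was lower: it stood at 145, 135 and 142 FPKM with LPS and at 89.3, 63.7 and 67.0 FPKM untreated (log2 fold change 0.89 ± 0.11 SE, adjusted p = 0.00054 by edgeR). The ratio of Acan to Vcan FPKM was therefore 0.322, 0.328 and 0.338 with LPS and 1.12, 2.31 and 2.26 untreated, so that aggrecan exceeded versican in each untreated library and was the lesser in each LPS library. Thbs2, a thrombospondin of stromal matrix, was 1.6-fold higher while its family member Comp was lower. The matrilins Matn4 and Matn2 were 2.17-fold and 1.69-fold lower, averaging 4.26 and 4.10 FPKM with LPS and 8.96 and 6.70 FPKM untreated. The SOX factor Sox4 averaged 23.2 FPKM with LPS and 18.4 FPKM untreated (adjusted p = 0.00644 by edgeR). The other lower calls were Thbs1 and Sox12, like Sox4 named after their values were seen. Both were lost without LPS replicate 1 or without untreated replicate 2, which left 2 lower calls. Thbs1 was also lost without LPS replicate 2, and Sox12 without LPS replicate 3 or untreated replicate 3.

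**Figure D3:**
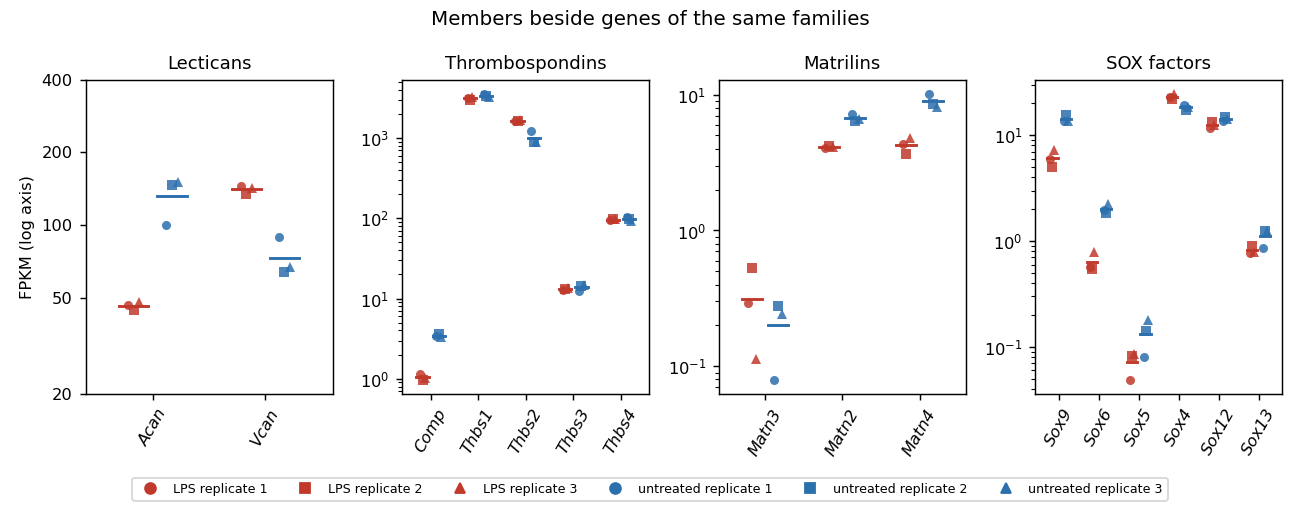
FPKM on log axes of members beside genes of the same families, LPS libraries (red) left of untreated libraries (blue), bars at group means. Acan and Vcan change places between the groups, Comp lies far below the other thrombospondins, and of the SOX factors Sox9 and Sox6 have clearly lower LPS values while Sox4 lies slightly higher.

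Regulators of chondrocyte differentiation were mixed. Of 15 tested, 7 were lower, 1 was higher and 7 did not pass, where 19.0% of all tested genes were lower and 20.1% higher. Mef2c, a MADS-box factor of chondrocyte hypertrophy, averaged 3.97 ± 0.244 FPKM with LPS and 8.90 ± 0.602 FPKM untreated (SD, n = 3), 2.32-fold lower. The growth plate receptor gene Fgfr3 was 1.97-fold lower, and the log2 fold changes of Pax1, a factor of the vertebral anlagen, and Trps1, a GATA-type repressor of growth plate chondrocytes, were -0.88 and -0.67. Zfp219, described in the mouse as a SOX9 partner, was the gene that rose, at 5.06 FPKM with LPS and 3.40 FPKM untreated. Without untreated replicate 1 Arid5b and Bmpr1b passed as well, making 3. These names were taken after their values were seen.

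Enzymes that build chondroitin sulphate, the chains aggrecan carries, were divided. Of 21 tested, 5 were higher, 7 lower and 9 did not pass, for a list median of 0.03 (log2 fold change). As 20.1% of all tested genes were higher and 19.0% lower, nothing is drawn from these counts. The 4-O-sulphotransferases Chst11 and Chst12 rose, at 20.2 ± 0.866 and 16.4 ± 1.55 FPKM with LPS against 9.32 ± 1.17 and 8.11 ± 0.869 FPKM untreated (SD, n = 3). Ugdh, which makes the glucuronic acid donor that hyaluronan also needs, was 2.01-fold higher, and the chain polymerase Chsy3 fell by 0.68 on the log2 scale. The lower calls numbered 4 without LPS replicate 1 or untreated replicates 2 or 3.

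Proteases that cut cartilage matrix, and their inhibitors, leaned the other way, with 10 of 17 tested higher and 3 lower. Their median log2 fold change was 0.51, and of all tested genes 20.1% were higher and 19.0% lower. The stromelysin Mmp3 stood at 36.4 ± 4.47 FPKM with LPS and 1.44 ± 0.878 FPKM untreated, the gelatinase Mmp9 at 9.61 ± 1.49 and 0.872 ± 0.771 FPKM, and the collagenase Mmp13 at 22.7 ± 1.45 and 6.08 ± 2.84 FPKM (SD, n = 3). Their folds of 24.4, 10.6 and 3.61 became 37.5, 21.6 and 4.91 without untreated replicate 1. In the untreated libraries Mmp3 stood at 2.45, 0.951 and 0.912 FPKM and Mmp9 at 1.76, 0.373 and 0.482 FPKM. Mmp3 and Mmp9 thus met the filter only through the LPS libraries' values, and the count of 10 should be read with that. Timp3, the inhibitor that acts on aggrecanases, fell 2.86-fold, to 7.96 ± 0.533 FPKM with LPS against 22.0 ± 2.83 FPKM untreated. The inhibitor Timp1 was 1.7-fold higher, at 470 ± 18.2 FPKM with LPS and 268 ± 28.7 FPKM untreated, and Timp2 stood at 48.7 and 47.2 FPKM (adjusted p = 0.944 by edgeR). Of the aggrecanases, Adamts5 was 2.29-fold higher (adjusted p = 0.0024 by edgeR) and Adamts4 had 4.15 FPKM with LPS and 4.88 FPKM untreated (adjusted p = 0.0282), a lower call that was lost without LPS replicate 1, LPS replicate 2, untreated replicate 2 or untreated replicate 3, each left out alone. Timp1, Timp2, Adamts5 and Adamts4 lay outside the naming rule and were picked for their role after their values were seen.

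Tendon and ligament genes fell in 7 of 11 tested cases and rose in 2, with a median log2 fold change of -0.43. Of all tested genes 19.0% were lower and 20.1% higher. The lower calls ran from 6 to 8 when 1 library was left out. Tenomodulin (Tnmd) averaged 30.8 ± 1.43 FPKM with LPS and 80.8 ± 5.77 FPKM untreated, and the tendon factor scleraxis (Scx) 37.1 ± 2.23 and 71.2 ± 6.66 FPKM (SD, n = 3). The leucine-rich proteoglycans Ogn and Aspn had log2 fold changes of -0.92 and -0.88. The 2 that rose were Tnc, at 347 FPKM with LPS and 211 FPKM untreated, and Dpt, at 6.52 and 4.44 FPKM. Fmod averaged 49.6 FPKM in each group and did not pass. Tnc, Dpt and Fmod were named after their values were seen.

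**Figure D4:**
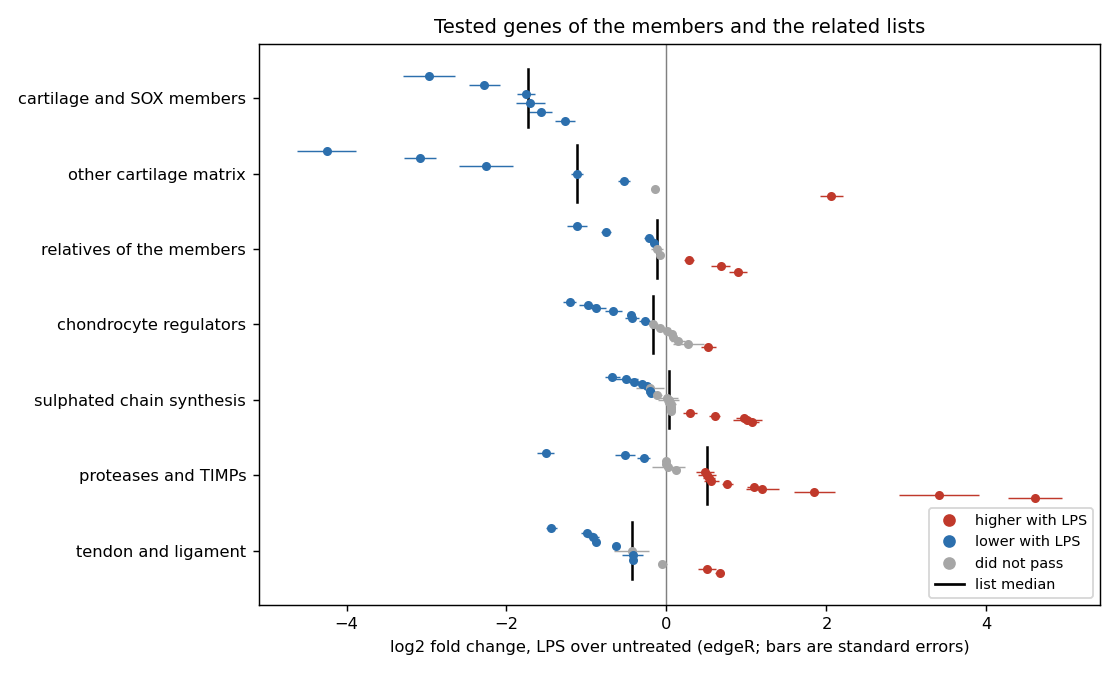
Log2 fold changes with standard errors for the tested members and 6 related lists, red higher and blue lower with LPS, grey not past the test, black bars at list medians. The members' median lies at -1.73 and that of the proteases and inhibitors at 0.51, and the lowest point among the other cartilage matrix genes is Col9a3 at -4.25. Sox6, Cilp2 and Col9a3 passed the filter through untreated libraries alone.

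Markers of other stromal fates did not all move the same way, where 19.0% of all tested genes were lower and 20.1% higher. All 6 smooth muscle markers fell, summing to 1984 to 2126 FPKM with LPS and 3043 to 4058 FPKM untreated, with Acta2 at 833 and 1781 FPKM and Tagln at 1121 and 1680 FPKM. Of 4 tested osteoblast markers 3 fell and 1 rose: Alpl averaged 6.95 FPKM with LPS and 20.6 FPKM untreated, and Spp1 267 and 132 FPKM. Ibsp, 1 of the 3, passed the filter through the untreated libraries alone and could only come out lower. Of 6 adipocyte markers Lpl, at 7.89 FPKM with LPS and 5.51 FPKM untreated, was tested and rose. Of 10 tested stromal markers 7 rose and 1 fell. The part of any of these in the falls of the cartilage genes was not tested.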

How the data were processed

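Poly(A)-selected, dUTP strand-marked paired-end libraries were analysed from 1 deposited table. The submitters' processing notes name build mRatBN7.2, StringTie 2.1.6, HISAT2 2.2.1, cutadapt 1.9, edgeR and DESeq2, without their roles. No source used here gives the annotation release or strand setting. The authors, per the file headers, deposited an FPKM value and a count per gene and library. The deposited counts were treated as estimated counts: they were whole, so rounding changed nothing, but 31.9% to 32.9% of values from 1 to 40 were multiples of 4, where 25% would be even. 1 fragment was taken as 4 units, an assumption that this excess does not establish. Fragment numbers and depths are counts divided by 4 and depend on it.

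Groups came from the sample titles. Genes with at least 1 FPKM in at least 3 of 6 libraries were tested with edgeR 4.0.16 (trimmed-mean factors, quasi-likelihood test, group as the only term) in R 4.3.3, with Benjamini-Hochberg adjustment over all tested genes and a threshold of 0.05. A standard error is the size of the log2 fold change over the root of its F statistic. Single FPKM values were compared by exact two-sided permutation tests (scipy 1.17.1). Fragment numbers carry counting error. The members and lists were chosen with earlier results of these data known. Besides all members, the text names up to 4 called genes per related list with the largest change and at least 1 FPKM in either group, the 2 most abundant genes of marker lists, any gene above 1 FPKM of cell types the culture should lack, and the 3 nearest profiles per tested member, 1 of which is not reported here. Alternatives were DESeq2 1.42.0, limma 3.58.1 on log2 FPKM, other scalings and filters, a replicate block and leaving out each library. The test was tested on simulated data.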

Additional observations from a re-analysis of the deposited data

How the results depend on the processing

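The 6 tested members were lower and past the threshold in every alternative that tested them, 18 for Sox9, Acan and Cilp and 17 for Sox6, Comp and Cilp2. Their largest adjusted p was 0.00361, for Cilp2 without LPS replicate 2. With at least 5 FPKM required in 3 libraries 3 members remained to be tested and 3 were lower. With no filter, or with edgeR's own filter, 1 member, Prg4, was higher and 6 were lower. On the log2(FPKM + 1) scale limma gave smaller log2 fold changes for low genes, -1.58 for Cilp2 and -0.88 for Sox6. Matn3 with no filter had a log2 fold change of 0.57, which ran from -0.042 without LPS replicate 2 to 0.964 without LPS replicate 3, in fits added after the data were seen.

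Over all genes 2323 were higher and 2201 lower, so 51.3% of calls were higher. That share was 63.3% with limma on log2(FPKM + 1), 62.7% with no normalization factors and 44.3% when the 50 most abundant genes were kept out of the library sizes. The 24 genes that the naming rule took from the related lists kept direction and side in 428 of 428 values. The rule had picked called genes with the largest changes in these same data, which made that outcome likely beforehand. It says nothing of the rest of the lists. Of the genes named outside the rule, Adamts4, Thbs1 and Sox12 lost their call when single libraries were left out, as given above. Small falls also depended on scaling. With no normalization factors, and with limma on log2(FPKM + 1), the lower calls among the relatives dropped from 4 to 2. Those among the proteases and inhibitors dropped from 3 to 2 in the same settings.

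The replicate numbers were shared by both groups, but deviations of same-numbered libraries correlated at 0.0689 to 0.125, so they were not taken as pairs, although each library correlated best with its own number. With the replicate block 2160 genes were higher and 2024 lower, the call of each of the 6 tested members was unchanged, and Cilp2 had an adjusted p of 0.000193. Depth limits Sox5, Chad and Matn3 in all libraries, and Prg4, whose untreated libraries held 10, 7 and 5 fragments.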
